A study of Mus musculus with 11 samples.

Results

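The chromatin modifier and DNA methylation genes are 40 genes whose products add marks to histones or DNA, remove those marks, or move nucleosomes. They were listed by name, as writers, erasers and remodelers, with earlier results of these data known. The rule uses measured values only to choose each gene's probe set. Of the 40 genes, 39 were measured (19 writers, 17 erasers and 3 remodelers) among 18193 genes in all, and Suv39h1 was not analysed here. Each gene was read from its brightest probe set, by the mean of the 11 arrays, among those that name a single gene.

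Writers include the Polycomb repressive complex 2 (PRC2), which methylates a lysine of histone H3 and so helps to silence genes, other histone lysine methyltransferases, the histone acetyltransferases, and the DNA methyltransferases, which place or copy methyl groups on cytosine. Erasers are the histone lysine demethylases, the histone deacetylases and sirtuins, and the TET dioxygenases, which oxidise methylcytosine on the way to its removal. Remodelers use ATP to slide or evict nucleosomes. In CD4 T cells, regulatory T cells (Treg cells) carry a Treg-specific pattern of unmethylated DNA at loci such as Foxp3 itself, and EZH2 and histone deacetylases are known partners or modulators of the FOXP3 protein.

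Expression was measured on 1 Affymetrix array per sample in CD4+ T cells from spleen and lymph node of mice aged 6 to 8 weeks, enriched by positive selection and then sorted for GFP. The first group, TN, held naïve CD4+ T cells without Foxp3 (n = 3), the next, Treg, held CD4+ T cells labelled as Foxp3-positive (n = 5), and GFPKO held GFP+ CD4+ T cells of Foxp3GFPKO/WT mice (n = 3), in which a Foxp3 allele that carries GFP in place of a working gene lies beside a wild-type allele. The labels give neither strain nor sex, and do not say that replicate arrays stand for different animals; the p-values therefore rest on the spread between arrays, which may be technical. Foxp3 is X-linked, and a heterozygous mouse also holds Treg cells that use the wild-type allele.

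All values are on the log2 scale, so that a difference of 1 is a doubling. A gene was called where its limma p, adjusted after Benjamini-Hochberg across the 18193 genes of a comparison, was under 0.05. Values up to 3.99 were taken as background, the highest value of Foxp3 in TN and of Y-linked genes in GFPKO. A gene's further probe sets were called with p-values adjusted over all 34945 single-gene probe sets; they read the same samples and are no replicates. The 3 comparisons share groups with each other, so their results are not independent. In bulk RNA, fewer cells of a type and less RNA per cell cannot be told apart.

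The Foxp3 probe set went against a label. It averaged 3.48 in TN, 3.47 in the arrays labelled Treg and 6.93 in GFPKO; where on the gene it lies is not known here, and 6 of the 7 genes of a Treg list, Foxp3 being the exception, were called higher in the arrays labelled Treg than in TN. All 7, Foxp3 included, were called higher in GFPKO than in TN. Xist averaged 11.34 in GFPKO against 3.78 in TN and 3.67 in the arrays labelled Treg, and the Y-linked Eif2s3y 2.88 against 8.19 and 7.70, so GFPKO was female and the others male by these genes. Sex and genotype therefore cannot be told apart. All 6 measured CD4 T cell markers were above background in each group. The summed signal of 5 NK cell markers was 9.44 to 9.69 in TN, 6.72 to 6.88 in the arrays labelled Treg and 6.27 to 6.77 in GFPKO. For 7 B cell markers, 4 of them at or below background in each group, it was 7.16 to 7.32, 8.22 to 8.54 and 6.95 to 7.42. For 11 myeloid and dendritic markers it was 10.14 to 10.48, 9.99 to 10.51 and 9.43 to 10.03, and for 2 CD8 T cell markers 7.63 to 7.88, 7.36 to 7.66 and 7.14 to 7.57. A sum rests mainly on its brightest genes. Of the 11 myeloid and dendritic markers, 1 was called higher and 5 lower in the arrays labelled Treg than in TN. In GFPKO, 5 were called lower than in TN and 0 higher. Of the 7 B cell markers, 1 was called higher and 1 lower in the arrays labelled Treg than in TN, and 1 higher and 2 lower in GFPKO. The part of these cells in the results was not tested.

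Few of the genes were called. Of the 39, 31 were called in no comparison, 6 in a single comparison and 2, Kdm2b and Hdac9, in 2 comparisons. Between the arrays labelled Treg and TN, 3 members were called higher (Kdm2b, Hdac9 and Hdac7) and 1 lower (Tet1). Over all genes in this comparison 6.54% were called higher and 3.42% lower. GFPKO differed from TN in 1 member called higher, Dnmt3a, where 2.64% of all genes were called higher. None of the members was called lower there, where 3.02% of all genes were, and by limma none was lower at an unadjusted p under 0.05 either. Between the arrays labelled Treg and GFPKO, 2 members were called higher (Kdm2b and Hdac9) and 3 lower (Suz12, Setd2 and Kdm5a), against 6.88% of all genes called higher and 2.55% lower. Called in either direction were 10.3%, 2.56% and 12.8% of members in the 3 comparisons and 9.97%, 5.66% and 9.43% of all genes. With both directions pooled, the shares of called members were thus near the background. By direction, members leaned lower in the arrays labelled Treg than in GFPKO. There, at an unadjusted p under 0.05 (limma), 14 of 39 members were lower and 3 higher. Of all 18193 genes, 1190 were lower and 3036 higher.

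**Figure D1:**
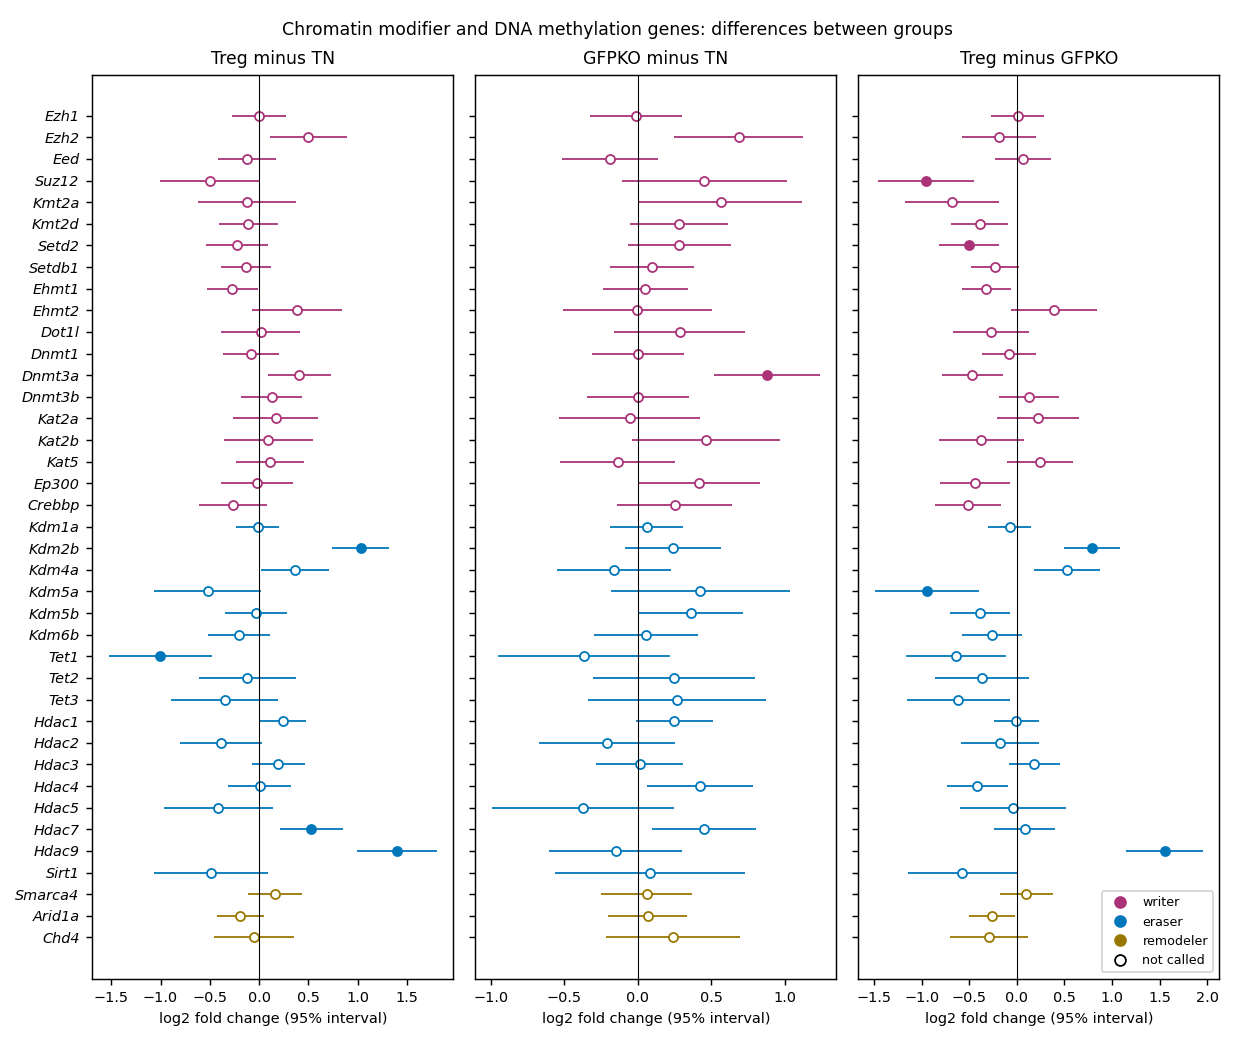
Log2 difference (x axis, log2 units) of each of the 39 measured members (y axis) in the 3 comparisons, with its 95% interval from limma; colours mark writers, erasers and remodelers and filled points mark calls at an adjusted p under 0.05. Most intervals cross 0, and the filled points are Kdm2b, Hdac9, Hdac7 and Tet1 for the arrays labelled Treg against TN, Dnmt3a for GFPKO against TN, and Kdm2b, Hdac9, Suz12, Setd2 and Kdm5a for the arrays labelled Treg against GFPKO.

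Overlap of the groups was also counted, with no model. For the arrays labelled Treg and TN, the values of 13 of 39 members (33.3%) did not overlap between the groups, 7 above and 6 below TN, against 19.5% of all genes. Some of the 13 were only narrowly apart, as in Arid1a, with nearest values of 10.403 in the arrays labelled Treg and 10.406 in TN. For GFPKO and TN this held for 5 members (12.8%), all above TN, against 18% of all genes, and for the arrays labelled Treg and GFPKO for 8 members (20.5%), 2 above and 6 below, against 14.4%. The median difference over members was -0.03, 0.10 and -0.26 in the 3 comparisons, and 0.03, -0.04 and 0.08 over all genes. Without regard to direction, the median size of the difference was 0.19, 0.24 and 0.32 over members and 0.15, 0.15 and 0.17 over all genes.

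Kdm2b, Hdac9, Tet1 and Dnmt3a, 4 of the 5 members called against TN, were chosen by the size of their fitted differences, which for Hdac9, below background in TN, is known only as a lower bound. They are shown by the 250 bases before their most upstream RefSeq start (mouse build GRCm38.p6), 5′ to 3′ on the gene's strand. Capitals mark CpG dinucleotides, the substrate of the DNA methyltransferases and TET enzymes among the members. The windows are chr5:122989100-122989349 on the minus strand for Kdm2b, with 27 CpG, chr12:34917096-34917345 on the minus strand for Hdac9, with 0 CpG, chr10:62887325-62887574 on the minus strand for Tet1, with 15 CpG, and chr12:3806730-3806979 on the plus strand for Dnmt3a, with 38 CpG.
Kdm2b: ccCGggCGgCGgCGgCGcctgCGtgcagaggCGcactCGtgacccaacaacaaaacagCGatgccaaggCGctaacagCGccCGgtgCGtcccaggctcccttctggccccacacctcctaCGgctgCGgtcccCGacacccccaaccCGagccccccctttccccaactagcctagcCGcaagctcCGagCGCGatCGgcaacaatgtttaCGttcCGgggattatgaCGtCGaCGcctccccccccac
Hdac9: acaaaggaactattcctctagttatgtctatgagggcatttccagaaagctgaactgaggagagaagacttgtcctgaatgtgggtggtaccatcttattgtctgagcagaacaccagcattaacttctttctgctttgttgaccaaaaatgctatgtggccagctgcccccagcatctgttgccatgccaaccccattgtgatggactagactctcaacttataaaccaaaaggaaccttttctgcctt
Tet1: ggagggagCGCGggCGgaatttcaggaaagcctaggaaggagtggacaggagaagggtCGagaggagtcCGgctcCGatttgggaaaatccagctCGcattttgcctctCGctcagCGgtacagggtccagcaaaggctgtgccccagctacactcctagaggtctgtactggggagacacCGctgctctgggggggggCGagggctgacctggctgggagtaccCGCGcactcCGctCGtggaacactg
Dnmt3a: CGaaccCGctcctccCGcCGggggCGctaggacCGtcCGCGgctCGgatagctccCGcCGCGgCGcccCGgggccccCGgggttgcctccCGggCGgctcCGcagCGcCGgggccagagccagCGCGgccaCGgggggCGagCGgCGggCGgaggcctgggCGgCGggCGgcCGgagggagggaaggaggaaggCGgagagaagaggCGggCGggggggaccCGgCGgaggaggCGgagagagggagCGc

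Over the 35 members in the promoter table the window held a median of 21 CpG (0 to 51) and a GC content of 65.2%, against 6 CpG (0 to 56) and 52% for the 27025 genes of the table. Hdac9, the member with no CpG in this window, and Dnmt3a, with 38, thus lie far apart, and both were called higher than TN in another group. RefSeq lists 4 starts for Kdm2b, 2 for Hdac9, 1 for Tet1 and 3 for Dnmt3a, and the arrays do not say which start was used. A forkhead motif (TGTTTAC, or GTAAACA on the other strand) was found in 2 members (5.71%), Kdm2b and Eed, and in 3.06% of all genes. In the Kdm2b window printed above it lies within tgtttaC. An E2F motif (TTTGGCG or TTTCCCG, on either strand) was found in 2 members (5.71%), Ehmt1 and Suz12, and in 4.01% of all genes. Whether a factor binds there was not measured.

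Among the 19 writers, none was called between the arrays labelled Treg and TN (limma; 4 at an unadjusted p under 0.05), 1 was called higher in GFPKO than in TN and 2 were called lower in the arrays labelled Treg than in GFPKO. These are 0%, 5.26% and 10.5% of the writers, against 9.97%, 5.66% and 9.43% of all genes called in either direction. The median difference over the writers was -0.02, 0.25 and -0.27 in those comparisons.

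PRC2 was represented by its catalytic subunits Ezh1 and Ezh2 and by Eed and Suz12, which the enzyme needs for activity. Suz12 read 8.67, 8.98 and 8.80 in TN, 8.66, 8.43, 8.26, 8.11 and 8.12 in the arrays labelled Treg, and 9.98, 9.24 and 8.58 in GFPKO. GFPKO replicate 1 stood highest, and replicate 3 lay within the range of the arrays labelled Treg, so these groups overlapped. Suz12 was lower in the arrays labelled Treg than in GFPKO by 0.96 ± 0.24 (SE), or 1.94-fold (limma, adjusted p = 0.018), and its differences from TN were not called (-0.50, adjusted p = 0.25, and 0.45, adjusted p = 0.45). All 5 other Suz12 probe sets had the same sign (-0.98 to -0.38), and 2 of them were called. The difference was -0.60 (adjusted p = 0.081) without GFPKO replicate 1, and without GFPKO replicate 2 the adjusted p was 0.062.

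Ezh2 averaged 7.17 ± 0.16 (SD) in TN, 7.67 ± 0.15 in the arrays labelled Treg and 7.86 ± 0.51 in GFPKO. Each array of both other groups lay above all 3 TN arrays, yet neither difference was called (0.50, adjusted p = 0.12, and 0.69, adjusted p = 0.069, limma). Ezh1 averaged 8.61, 8.61 and 8.60, and its difference between the arrays labelled Treg and TN had a 95% interval of -0.28 to 0.28. Eed averaged 9.11, 8.98 and 8.92, with no call.

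Of the 7 other histone lysine methyltransferases, Setd2, which trimethylates histone H3 along transcribed genes, was called. Setd2 read 7.26, 7.31 and 7.11 in TN, 7.07, 6.96, 7.04, 7.11 and 6.84 in the arrays labelled Treg, and 7.88, 7.50 and 7.15 in GFPKO. The arrays labelled Treg all lay below GFPKO, by a margin of 7.11 against 7.15 at the nearest pair. Setd2 was lower there by 0.51 ± 0.15, or 1.42-fold (limma, adjusted p = 0.044). The call was near the threshold: it was lost in 14 of 21 alternative fits, among them the fit without GFPKO replicate 1 (-0.32, adjusted p = 0.22).

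Kmt2a, which methylates histone H3 at active promoters, averaged 8.06, 7.93 and 8.62 in TN, the arrays labelled Treg and GFPKO, and its difference of -0.69 between the last 2 groups was not called (adjusted p = 0.082, limma). Kmt2d, which acts mainly at enhancers, averaged 8.69, 8.58 and 8.97. By this brightest probe set the arrays labelled Treg lay below GFPKO without overlap but without a call (-0.39, limma, adjusted p = 0.10). The other Kmt2d probe set had the opposite sign there (0.26, not called), so the direction was not settled. The enzymes of repressive histone H3 methylation had no call: Setdb1 averaged 6.89, 6.76 and 6.99, Ehmt1 8.58, 8.31 and 8.63, and Ehmt2 8.91, 9.30 and 8.91. Dot1l, which methylates the core of histone H3, averaged 7.05, 7.07 and 7.34. Their differences ran from -0.32 (Ehmt1, arrays labelled Treg minus GFPKO) to 0.39 (Ehmt2, same comparison).

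The DNA methyltransferases differed from each other. Dnmt3a, which sets new methylation, read 7.36, 7.42 and 7.06 in TN, 7.92, 7.57, 7.81, 7.72 and 7.42 in the arrays labelled Treg, and 8.40, 8.18 and 7.89 in GFPKO. All GFPKO arrays lay above all TN arrays, and the arrays labelled Treg averaged 7.69, between TN at 7.28 and GFPKO at 8.16. Dnmt3a was higher in GFPKO than in TN by 0.88 ± 0.17, or 1.84-fold (limma, adjusted p = 0.0046), and this call held in each fit that left out an array but was lost with the actin control as a covariate (0.70, adjusted p = 0.088). The arrays labelled Treg differed from TN by 0.41 (adjusted p = 0.12) and from GFPKO by -0.47 (adjusted p = 0.068), neither called. Of the 4 other Dnmt3a probe sets, 3 were called higher in GFPKO than in TN (0.93, 1.14 and 0.77) and 1 stood at -0.01; 1 of those 3 was also called between the arrays labelled Treg and TN (0.56, adjusted p = 0.034), and another between the arrays labelled Treg and GFPKO (-0.72, adjusted p = 0.049).

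Dnmt1, which copies methylation after replication, averaged 9.53, 9.45 and 9.53. The 95% interval of its difference was -0.36 to 0.20 between the arrays labelled Treg and TN and -0.31 to 0.31 between GFPKO and TN. Dnmt3b, the other enzyme of new methylation, averaged 6.68, 6.81 and 6.69, with intervals of -0.18 to 0.44 and -0.35 to 0.35. Uhrf1, the partner that recruits DNMT1 to newly copied DNA and no member of the list, read 5.69, 6.08 and 5.67 in TN, 7.41, 7.54, 7.59, 8.14 and 8.03 in the arrays labelled Treg, and 6.79, 7.08 and 6.83 in GFPKO. None of the 3 groups overlapped another in Uhrf1. It was higher in the arrays labelled Treg than in TN by 1.93 ± 0.17, or 3.81-fold (limma, adjusted p = 1.4e-06), in GFPKO than in TN by 1.09 (adjusted p = 0.0026), and in the arrays labelled Treg than in GFPKO by 0.84 (adjusted p = 0.0062).

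Of 29 cell cycle genes, 17 were called higher in the arrays labelled Treg than in TN, 5 in GFPKO than in TN and 9 in the arrays labelled Treg than in GFPKO, with none called lower (nor lower at an unadjusted p under 0.05, limma) in the 3 comparisons. Their summed signal was 12.77 to 12.88 in TN, 13.11 to 13.27 in the arrays labelled Treg and 12.93 to 13.02 in GFPKO. Mki67, a marker of cycling cells, averaged 4.07, 6.02 and 5.74, and Top2a, a topoisomerase of dividing cells, 5.81, 6.88 and 6.56. The part of cell cycling in the levels of Uhrf1, Ezh2 and Dnmt1 was not tested.

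**Figure D2:**
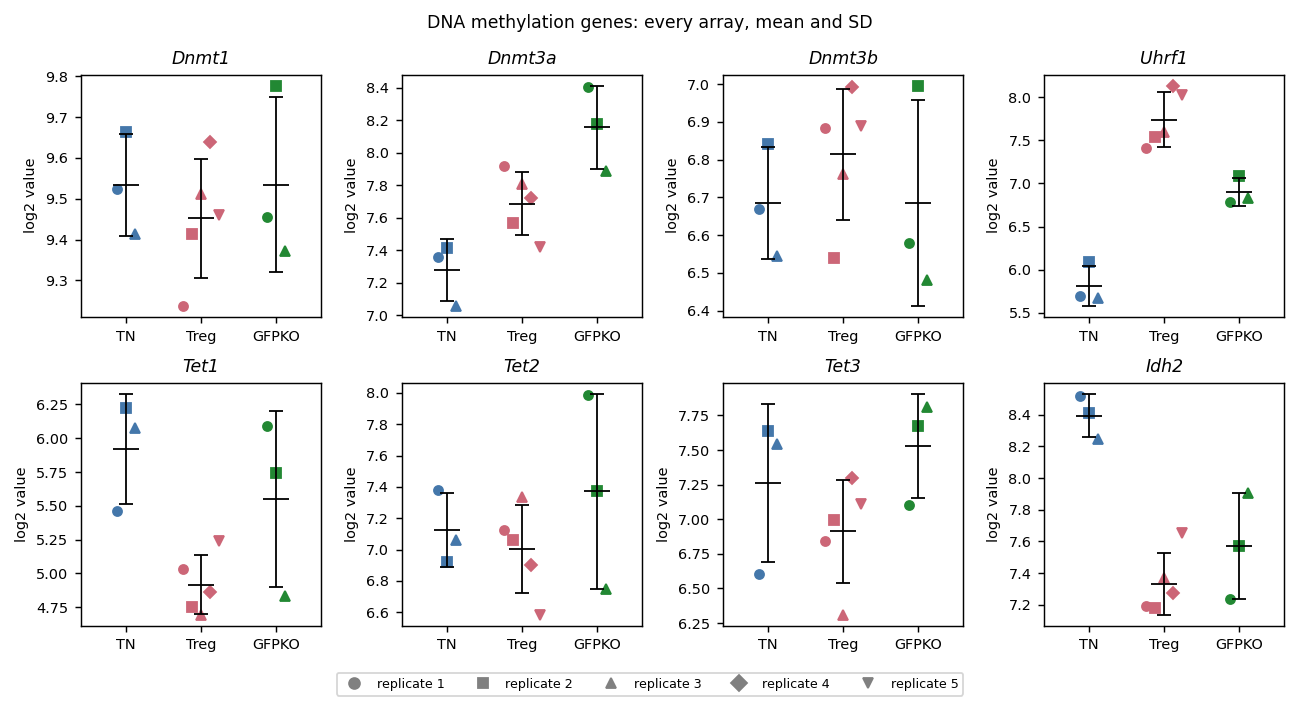
Log2 value (y axis) of each array for Dnmt1, Dnmt3a, Dnmt3b, Uhrf1, Tet1, Tet2, Tet3 and Idh2 in TN, the arrays labelled Treg and GFPKO, with the group mean and SD. Dnmt1 averages 9.53, 9.45 and 9.53, while Uhrf1 averages 5.81, 7.74 and 6.90 and Tet1 is lowest in the arrays labelled Treg (5.92, 4.92 and 5.55).

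None of the 5 histone acetyltransferases was called in a comparison (limma; 0, 1 and 2 at an unadjusted p under 0.05). Crebbp and Ep300, the paired coactivators that acetylate enhancer histones, averaged 9.64, 9.37 and 9.89, and 8.58, 8.55 and 8.99, in TN, the arrays labelled Treg and GFPKO. Crebbp differed by -0.51 (limma, adjusted p = 0.063) and Ep300 by -0.44 (adjusted p = 0.13) between the arrays labelled Treg and GFPKO. The 3 other Crebbp probe sets above background had the same sign there (-0.98 to -0.35), and none was called. Kat2a, of the SAGA complex, averaged 8.38, 8.55 and 8.33, and Kat5, of the NuA4 complex, 7.63, 7.74 and 7.49. Kat2b averaged 8.70, 8.79 and 9.17 by its brightest probe set, with no call, while a dimmer probe set was called higher in GFPKO than in TN (1.03) and lower in the arrays labelled Treg than in GFPKO (-1.002).

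Among the 17 erasers, 3 were called higher and 1 lower in the arrays labelled Treg than in TN, and 2 higher and 1 lower than in GFPKO. None was called between GFPKO and TN (limma; 3 at an unadjusted p under 0.05). Called in either direction were 23.5%, 0% and 17.6% of the erasers for the arrays labelled Treg against TN, GFPKO against TN and the arrays labelled Treg against GFPKO, beside 9.97%, 5.66% and 9.43% of all genes; the erasers' shares rest on 4, 0 and 3 genes. Whether writers and erasers differ in this was not tested.

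KDM2B removes methyl groups from histone H3 and binds unmethylated CpG islands, where it brings a variant Polycomb repressive complex 1. Kdm2b read 8.56, 8.29 and 7.99 in TN, 9.26, 9.29, 9.44, 9.38 and 9.19 in the arrays labelled Treg, and 8.51, 8.38 and 8.67 in GFPKO. All 5 arrays labelled Treg lay above all TN and GFPKO arrays. Kdm2b was higher than in TN by 1.03 ± 0.14, or 2.04-fold (limma, adjusted p = 8.1e-05), and than in GFPKO by 0.79 ± 0.14, or 1.73-fold (adjusted p = 0.0017). GFPKO and TN differed by 0.24 (adjusted p = 0.51). Both calls held in all 21 alternative fits, with differences of 0.89 to 1.17 against TN and 0.63 to 0.93 against GFPKO. Its other probe set was called against TN (0.997) but not against GFPKO (0.46, adjusted p = 0.075).

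Of the other histone lysine demethylases, Kdm5a, which removes methylation from active promoters, was called. Kdm5a read 8.46, 8.97 and 9.13 in TN, 8.94, 8.57, 8.05, 8.03 and 8.07 in the arrays labelled Treg, and 9.88, 9.17 and 8.79 in GFPKO. Replicate 1 of the arrays labelled Treg lay above GFPKO replicate 3, so the groups overlapped. Kdm5a was lower in the arrays labelled Treg than in GFPKO by 0.95 ± 0.26, or 1.93-fold (limma, adjusted p = 0.03). The call was lost in 8 of 21 alternative fits, and with the mean over its probe sets the difference was -0.28 (adjusted p = 0.29). It was -0.65 (adjusted p = 0.16) without GFPKO replicate 1, and the adjusted p was 0.075 without GFPKO replicate 2 and 0.07 to 0.074 without replicate 3, 4 or 5 of the arrays labelled Treg. None of the 3 other Kdm5a probe sets above background was called (-0.59 to 0.02).

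Kdm1a, the flavin-dependent demethylase LSD1, averaged 9.43, 9.41 and 9.49, with intervals from -0.30 to 0.31 over the 3 comparisons. Kdm4a, which acts on repressive histone methylation, averaged 7.42, 7.78 and 7.26, and its difference of 0.52 between the arrays labelled Treg and GFPKO was not called (adjusted p = 0.058, limma). Kdm6b, the inducible demethylase that opposes PRC2, averaged 9.16, 8.96 and 9.22, with no call, while another of its probe sets was called higher in GFPKO than in TN (0.65). Kdm5b, a paralog of Kdm5a, averaged 8.89, 8.86 and 9.25. Its brightest probe set lay lower in all arrays labelled Treg than in GFPKO (-0.39, adjusted p = 0.12), and another probe set was called in the opposite direction (0.45, adjusted p = 0.027), so its direction was not settled.

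The TET genes, which encode the enzymes that oxidise methylcytosine, all had a negative difference between the arrays labelled Treg and TN, and only Tet1 was called. Tet1 read 5.46, 6.22 and 6.08 in TN, 5.03, 4.75, 4.69, 4.86 and 5.24 in the arrays labelled Treg, and 6.09, 5.74 and 4.83 in GFPKO. TN lay above the arrays labelled Treg without overlap, and GFPKO spanned both. Tet1 was lower in the arrays labelled Treg than in TN by 1.005 ± 0.24, or 2.01-fold (limma, adjusted p = 0.014). The call was lost without TN replicate 2 (-0.85, adjusted p = 0.096) or TN replicate 3 (-0.93, adjusted p = 0.076). A second probe set gave -1.57 and was called (adjusted p = 0.0062), a further one gave -0.49 without a call, and the last was at background.

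Tet2 averaged 7.12, 7.002 and 7.37 and Tet3 7.26, 6.91 and 7.53 in TN, the arrays labelled Treg and GFPKO. Neither was called by its brightest probe set. Another Tet2 probe set was called lower in the arrays labelled Treg than in GFPKO (-1.31, adjusted p = 0.0021, limma over all probe sets). Idh2, a mitochondrial enzyme that makes alpha-ketoglutarate, the cosubstrate of TET and of most histone demethylases, is no member of the list. It averaged 8.39, 7.33 and 7.57, and was called lower than in TN both in the arrays labelled Treg (-1.06, adjusted p = 0.00023) and in GFPKO (-0.82, adjusted p = 0.0099).

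The class I histone deacetylases Hdac1, Hdac2 and Hdac3, the catalytic units of the main nuclear corepressor complexes, had no call (limma; 1, 0 and 0 at an unadjusted p under 0.05). Hdac1 averaged 9.61, 9.86 and 9.86. All arrays of both other groups lay above TN in Hdac1, by 0.24 (limma, adjusted p = 0.23) and 0.25 (adjusted p = 0.34) on average. The nearest arrays labelled Treg and TN were at 9.70 and 9.69. Hdac2 averaged 9.31, 8.92 and 9.10 and Hdac3 8.43, 8.62 and 8.44. Sirt1, the NAD-dependent deacetylase, averaged 7.52, 7.04 and 7.61, with no call.

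Class IIa deacetylases shuttle between cytoplasm and nucleus and act mainly as scaffolds for corepressors, and HDAC7 and HDAC9 are known from T cell selection and Treg function. Hdac9 read 2.95, 2.74 and 2.79 in TN, 4.65, 4.39, 4.33, 4.11 and 3.64 in the arrays labelled Treg, and 2.79, 2.83 and 2.40 in GFPKO. All TN and GFPKO arrays were below the background of 3.99, and 4 of 5 arrays labelled Treg were above it. The fitted difference was 1.40 ± 0.19 against TN (limma, adjusted p = 9.5e-05) and 1.55 ± 0.19 against GFPKO (adjusted p = 8.7e-05), and both calls held in all 21 alternative fits. Since the dim groups give only a bound, the arrays labelled Treg were by their mean higher by at least 0.23, 4.22 ± 0.38 (SD) less the background. That margin is smaller than the SD, and replicate 5, at 3.64, was below background. The other Hdac9 probe set, below background in each group, showed a difference of -0.05 between the arrays labelled Treg and TN.

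Hdac7 read 8.32, 8.60 and 8.42 in TN, 8.75, 8.99, 8.85, 9.15 and 9.15 in the arrays labelled Treg, and 8.56, 9.07 and 9.06 in GFPKO. TN lay below all arrays labelled Treg. Hdac7 was higher there by 0.53 ± 0.15, or 1.44-fold (limma, adjusted p = 0.033), while the difference between GFPKO and TN was not called (0.45, adjusted p = 0.16). The call was lost in 7 of 21 alternative fits, among them those without TN replicate 1 (adjusted p = 0.17) and without TN replicate 3 (adjusted p = 0.11), and the other probe set gave 0.40 without a call. Hdac4 averaged 6.73, 6.73 and 7.15 and Hdac5 7.32, 6.90 and 6.94, neither called. Hdac5 had the largest spread of the members in GFPKO, with arrays at 6.14, 6.89 and 7.81.

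**Figure D3:**
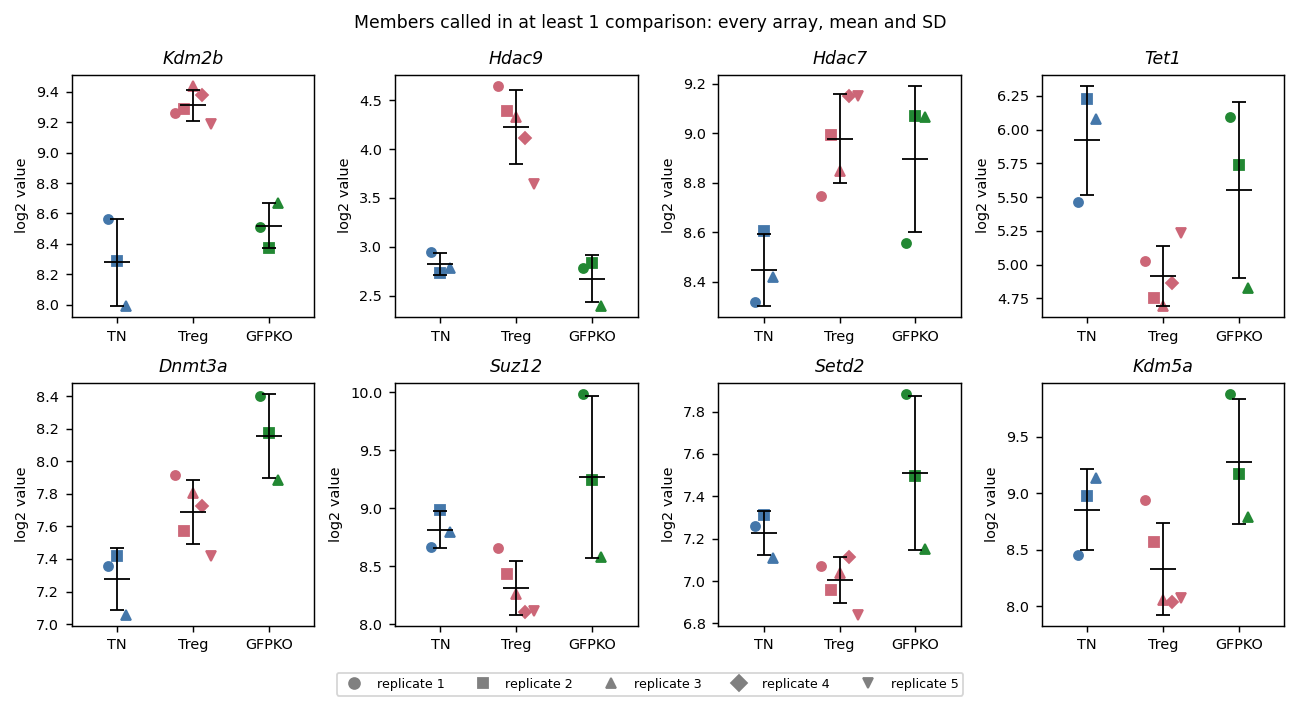
Log2 value (y axis) of each array for the 8 called members in TN, the arrays labelled Treg and GFPKO, with the group mean and SD. Kdm2b and Hdac9 are higher in all 5 arrays labelled Treg than in all TN and GFPKO arrays, while in Suz12 and Kdm5a GFPKO spreads widely and overlaps the arrays labelled Treg.

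The 3 remodelers were called in no comparison (limma; 0, 0 and 1 at an unadjusted p under 0.05). Smarca4, the ATPase BRG1 of the SWI/SNF complexes, averaged 9.22, 9.38 and 9.28 in TN, the arrays labelled Treg and GFPKO. Its 95% intervals ran from -0.25 to 0.44 over the 3 comparisons by this brightest probe set. The other Smarca4 probe set gave 0.64 between GFPKO and TN and -0.46 between the arrays labelled Treg and GFPKO, neither called. Arid1a, a DNA-binding subunit of the same family of complexes, averaged 10.47, 10.28 and 10.54. The arrays labelled Treg lay below both other groups in Arid1a without overlap, with differences of -0.19 and -0.26. Neither was called (limma, adjusted p = 0.39 and 0.18), and the nearest arrays labelled Treg and TN were at 10.403 and 10.406. Chd4, the ATPase of the nucleosome remodeling and deacetylase complex NuRD, averaged 9.86, 9.81 and 10.10.

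The intervals limit how large an uncalled difference of the brightest probe set can be. They do not cover a gene's other probe sets: 1 of Tet2 gave -1.31 between the arrays labelled Treg and GFPKO. Of Kat2b, 1 gave 1.03 between GFPKO and TN, and of Crebbp, 1 gave 1.004 in the same comparison, without a call. Of the 35 members not called between the arrays labelled Treg and TN, 32 had a 95% interval that lay within 1 log2 unit of 0 on both sides, the others being Suz12, Kdm5a and Sirt1. The same held for 34 of 38 between GFPKO and TN, the others being Ezh2, Suz12, Kmt2a and Kdm5a, and for 30 of 34 between the arrays labelled Treg and GFPKO, the others being Kmt2a, Tet1, Tet3 and Sirt1.

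The probe set matters for some members. A further probe set above background was present for 27 members, and 9 members had 1 probe set only. Another probe set was called where the brightest was not for Dnmt3a between the arrays labelled Treg and TN, for Kat2b and Kdm6b between GFPKO and TN, and for Dnmt3a, Kat2b, Kdm5b and Tet2 between the arrays labelled Treg and GFPKO.

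**Figure D4:**
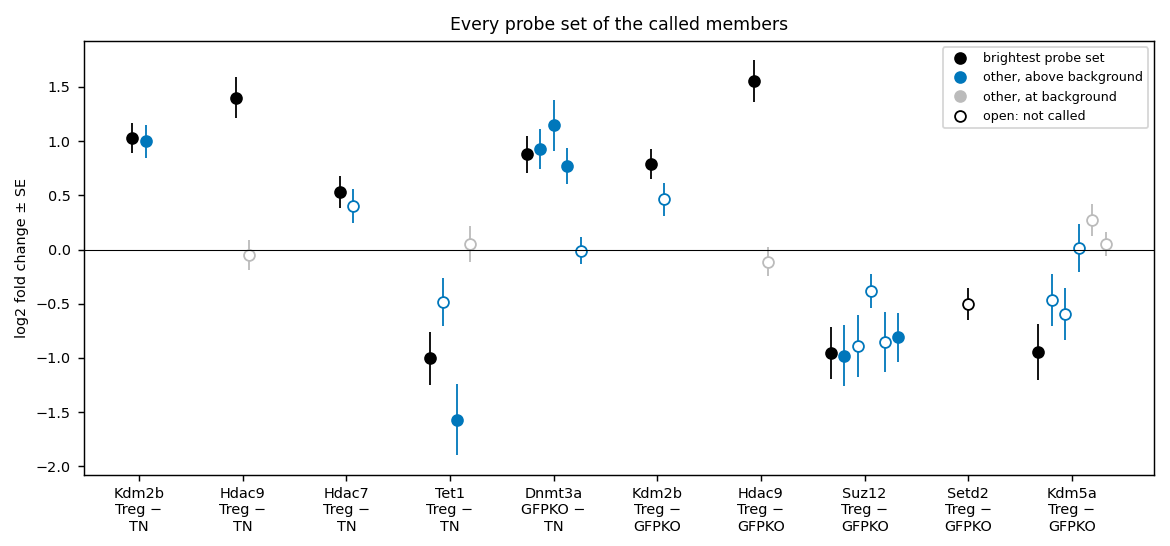
Log2 difference with its SE (y axis, log2 units) for every probe set of the 8 called members (x axis). Points are filled where called with p-values adjusted over all single-gene probe sets. The probe sets of Kdm2b and Suz12 keep 1 direction, and the second Hdac9 probe set, at -0.05 for the arrays labelled Treg against TN, is below background in each group and so gives no comparison; Setd2, called over genes, is open here, where p-values are adjusted over probe sets.

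GFPKO varied most. The median SD of a member was 0.17 in TN, 0.17 in the arrays labelled Treg and 0.27 in GFPKO, against 0.15, 0.17 and 0.24 over all genes, and 27 of 39 members had their largest SD in GFPKO. Of the 3 GFPKO arrays, replicate 1 was the highest in 17 members and the lowest in 13, replicate 2 in 10 and 4, and replicate 3 in 12 and 22. The actin control, whose 3′ minus 5′ signal grows as RNA degrades, was 0.381 to 0.526 in TN, 0.442 to 0.611 in the arrays labelled Treg, and 0.770, 0.832 and 0.451 in GFPKO replicates 1, 2 and 3. In replicates 1 and 2, which were above all other arrays in this measure, Suz12 read 9.98 and 9.24, Setd2 7.88 and 7.50 and Kdm5a 9.88 and 9.17, each above all other arrays. With the actin difference as a covariate, the differences between the arrays labelled Treg and GFPKO were -0.59 for Suz12 (adjusted p = 0.19, limma), -0.34 for Setd2 (adjusted p = 0.34) and -0.58 for Kdm5a (adjusted p = 0.29). The part of RNA quality in these calls was not tested beyond that fit.

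**Figure D5:**
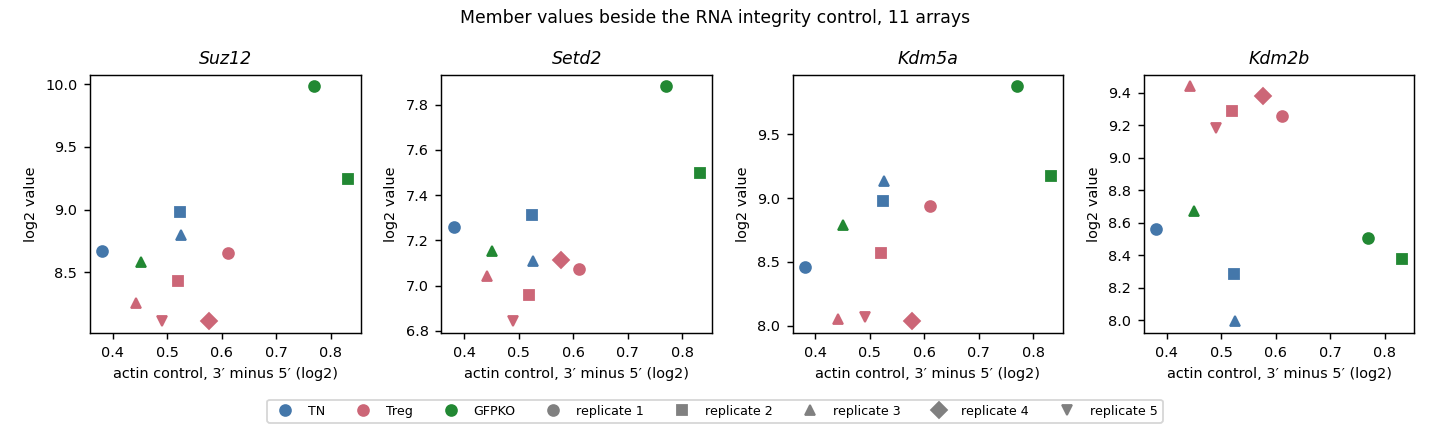
Log2 value (y axis) of Suz12, Setd2, Kdm5a and Kdm2b on each array against the actin control's 3′ minus 5′ signal (x axis, log2 units), coloured by group. GFPKO replicates 1 and 2, at 0.770 and 0.832, are the highest arrays in Suz12, Setd2 and Kdm5a, while in Kdm2b the arrays labelled Treg, at 0.442 to 0.611, are the highest.

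A wider list of 107 measured chromatin genes, the partners and paralogs of the members, gave counts of a similar order: 4 higher and 4 lower between the arrays labelled Treg and TN, 2 higher and 3 lower between GFPKO and TN, and 4 higher and 10 lower between the arrays labelled Treg and GFPKO (7.48%, 4.67% and 13.1% in either direction). Over all genes these shares were 9.97%, 5.66% and 9.43%. The Y-linked Uty and Kdm5d were among the 3 lower in GFPKO than in TN. They were also among the 4 higher in the arrays labelled Treg than in GFPKO. Of the 10 lower, 4 were among 32 writer partners, 1 among 24 eraser partners and 5 among 38 remodeler partners. Higher in the arrays labelled Treg than in TN, beside Uhrf1, were Hdac6 (0.99, limma, adjusted p = 0.00028), a cytoplasmic deacetylase that acts on tubulin, and Ncoa3 (0.56, adjusted p = 0.0044), a nuclear receptor coactivator. Lower were Chd7 (-1.58, adjusted p = 4.8e-05), a remodeler found at enhancers, and, beside Idh2, Smarca2 (-0.79, adjusted p = 0.017), the SWI/SNF ATPase that can stand in for Smarca4. In GFPKO, Ncoa3 was also called higher than in TN (0.62, adjusted p = 0.0091).

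Between the arrays labelled Treg and GFPKO the largest called decreases were in Pbrm1 (-1.27, adjusted p = 0.0032, limma) and Arid2 (-0.95, adjusted p = 0.0049), both subunits of the PBAF form of SWI/SNF, and in Kdm6a (-1.11, adjusted p = 0.0072). Companions called lower in this comparison numbered 10, but 1 with the actin difference as a covariate and 4 without GFPKO replicate 1 or 2. The part of RNA quality in these decreases was not tested beyond that fit. Kdm6a is the X-linked demethylase that, like Kdm6b, opposes PRC2, and it is known to escape X inactivation. It averaged 7.95 in TN, 7.52 in the arrays labelled Treg and 8.63 in GFPKO, with GFPKO arrays at 9.20, 8.72 and 7.97. Its Y-linked homolog Uty and the Y-linked Kdm5d, whose X-linked homolog is Kdm5c, were below background in GFPKO, at means of 2.28 and 2.08, against 5.11 and 6.93 in TN and 4.89 and 6.54 in the arrays labelled Treg. Kdm5c was called in no comparison (0.18, 0.36 and -0.18, adjusted p = 0.45, 0.13 and 0.37). Uty and Kdm5d, being Y-linked, follow the sex read above from Xist and Eif2s3y. For Kdm6a and Kdm5c the sex of the mice and the genotype cannot be told apart.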

How the data were processed

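Expression was measured on 11 arrays in 3 groups of CD4+ T cells, grouped by their labels. The deposited values are log2 values; per the submitters' processing notes the authors used RMA, which corrects background, normalises by quantiles and summarises probes, its version not given. The scale was read from the values (1.54 to 14.65, array medians 4.07 to 4.16). Raw intensities were not analysed here, so precision is limited by the number of arrays. RMA makes arrays comparable in distribution, so a change shared by most genes would not be seen, and it compresses differences near background.

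Of 45101 probe sets, 34945 had 1 gene symbol and gave 18193 genes, while 932 had several symbols and 9211 were not listed or were controls; probe sets without a single symbol were left out. The limma package (3.58.1, under R 4.3.3) fitted 1 mean per group to the 11 arrays; variances were moderated (eBayes), tests were two-sided, and the code was tested on simulated data. Group values are means ± SD, differences are ± SE, and summed signals are the log2 of summed linear values. Promoters and names came from RefSeq (GRCm38.p6), with 35 of 39 members matched.

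All members are named; every array is printed for members called at least once. Of the companion list, the 3 largest called increases and decreases per comparison are named, with Kdm5c, Kdm6a, Kdm5d and Uty; of the cell cycle list, Mki67 and Top2a. The members and lists were chosen with earlier results of these data known, and the background level was taken over from an earlier analysis of them. Alternatives were the fit of 2 groups only, a replicate block, the mean over or most variable of a gene's probe sets, a filter on dim genes, trended robust moderation, array weights, repeated quantile normalisation, centring, the actin covariate, and each array left out.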

Additional observations from a re-analysis of the deposited data

Results flagged for a closer look

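Chd4 in replicate 3 of the arrays labelled Treg read 9.35, against 9.87 for the nearest and 10.02 for the farthest of the other 4 arrays of its group, a gap of 0.771 of the group's range. It was the only one of 39 members with such a gap in the group of 5 arrays, and chance gives this in about 1 of 20 groups. TN replicate 1 was low as well, at 9.33.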

How the results depend on the processing

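Over 117 member differences (39 members in 3 comparisons) and 21 alternatives, 2343 of 2457 values stayed on their side of the threshold, 78 passed it newly and 36 lost it. The sign changed in 141 values, all of them differences not called, and in 0 called ones. In the counts that follow, those without alternatives are 3 members higher and 1 lower (arrays labelled Treg against TN), 1 and 0 (GFPKO against TN) and 2 and 3 (arrays labelled Treg against GFPKO), and 4 and 4, 2 and 3, and 4 and 10 companions.

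The fit of only 2 groups gave, against TN, 3 members lower and 7 companions higher and 11 lower in the arrays labelled Treg. The mean over probe sets gave 5 members lower against GFPKO. The most variable probe set gave 9 companions lower (arrays labelled Treg against TN), 3 members higher (GFPKO against TN), and 6 members and 19 companions lower (against GFPKO). Array weights gave 5 members higher and 3 lower with 10 and 13 companions, then 8 and 1 with 19 and 16, then 4 and 19 with 16 and 29. Repeated quantile normalisation gave 2 members higher in GFPKO than in TN. Centring, which moved the median of all genes from 0.03 to -0.11 and from 0.08 to -0.09 in the comparisons of the arrays labelled Treg, gave 10 companions lower against TN and 11 members lower beside 2 higher against GFPKO; against TN it left 2 members higher and 1 lower. The actin covariate gave 2 members and 9 companions lower (arrays labelled Treg against TN), 0 members higher, 1 lower and 1 companion higher (GFPKO against TN), and 0 members and 1 companion lower (against GFPKO). The cause of these shifts was not tested.

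With the replicate block, 2 companions were lower (arrays labelled Treg against TN), 2 members higher (GFPKO against TN), and 0 members and 4 companions lower (against GFPKO). The labels do not say whether replicate numbers mark a pairing. Deviations of 9 same-numbered pairs correlated at -0.22 to 0.507 (median 0.0554), and the 3 over 0.1 all joined replicate 1 arrays. Those of 30 pairs with different numbers correlated at -0.54 to 0.512 (median -0.021), and 8 were over 0.1. These values do not settle whether arrays were paired.

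Leaving out 1 array gave 2 to 4 members higher and 0 to 1 lower (arrays labelled Treg against TN), 1 to 5 higher and 0 to 1 lower (GFPKO against TN), and 2 to 4 higher and 0 to 11 lower (against GFPKO); companions gave 3 to 7 and 2 to 9, 2 to 11 and 2 to 9, and 4 to 16 and 4 to 20. Members lower against GFPKO numbered 0 without GFPKO replicate 1 or 2, 11 without GFPKO replicate 3, 5 without Treg replicate 1, and 1 without Treg replicate 3, 4 or 5. Members higher in GFPKO than in TN numbered 5, with 1 lower, without GFPKO replicate 3, and 2 without GFPKO replicate 1; members lower against TN numbered 0 without TN replicate 2 or 3.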
